A study of Mus musculus with 6 samples.

Results

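The integrated stress response (ISR) is represented here by 10 genes, Atf4, Atf5, Ddit3, Trib3, Chac1, Asns, Sesn2, Psat1, Phgdh and Ddit4, taken by symbol from a table of RefSeq transcripts that lists 21837 gene symbols. For each gene the transcript with the highest mean value was used, and all 10 genes had an average RPKM (reads mapped to a transcript, scaled to its exon length and to the mapped reads of the library) above 1. They were set against the 6570 protein coding genes of the table that also passed this filter. In the ISR, kinases that sense amino acid shortage, unfolded protein in the endoplasmic reticulum (ER), double-stranded RNA or heme deficiency phosphorylate the translation factor eIF2. This lowers general protein synthesis but favours translation of the ATF4 mRNA, and the ATF4 protein then activates genes for amino acid supply and further transcription factors such as CHOP, the product of Ddit3. Because ATF4 and ATF5 are controlled at translation through short upstream reading frames, their mRNA level is only part of their regulation.

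The RNA came from primary wildtype (WT) MEFs, fibroblasts grown from 13.5-day mouse embryos of the strain C57BL/6x 129 and used at passage 4. The cells were left untreated or were given 20 ng/ml of TNFα, a cytokine that activates NF-κB, for 1.5, 6 or 24 hr, and 1 directional RNA-seq library was made per time. H3K4me3, a histone mark of active promoters, was profiled in untreated MEFs with 1 ChIP library and 1 input library. Nothing in the labels ties the 4 RNA libraries to separate cultures, and with 1 library per time there was no replicate and no test. A ratio below therefore compares libraries. The extraction label of the 24 hr library describes a ChIP, but everything else in its labels describes RNA-seq, and it was kept.

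TNFα target genes were higher in every treated library. Nfkbia, which encodes the NF-κB inhibitor IκBα, had an RPKM of 3.73 untreated, 84.2 at 1.5 hr, 31.0 at 6 hr and 67.4 at 24 hr. Tnfaip3, a ubiquitin-editing inhibitor of NF-κB, went from 0.0832 untreated to 4.66, 0.827 and 1.74. The chemokine gene Cxcl1 had 0.764, 9.36, 3.94 and 4.08, and Ccl2, which encodes the monocyte attractant MCP-1, had 2.18, 211, 58.0 and 157. All 8 fibroblast markers were detected, with a summed RPKM of 1003, 986.3, 470.4 and 617.0 in time order. Of the 7 with an average above 1 RPKM, 4 were at least 2-fold lower than untreated at 6 hr, against 31.6% of coding genes. At 24 hr 3 were lower (Col1a1, Col3a1 and Pdgfrb), against 12.6%. Vim went the other way, with log2 ratios to untreated of 1.75 at 1.5 hr and 1.49 at 24 hr. Among the leukocyte markers, Cd3e was at 0 in each library, Ptprc reached at most 0.359 and Emr1 0.864. Lyz2 was at 26.3 untreated, 171 at 1.5 hr, 31.4 at 6 hr and 83.9 at 24 hr, and Cd68 was at 7.06, 9.60, 2.36 and 3.64. The summed leukocyte markers were 33.9, 182, 34.0 and 88.0 in time order, and Lyz2 alone made up most of each sum. At 24 hr Cd68 was below untreated, and Ptprc and Emr1 were slightly above it. The sum was higher at 1.5 and 24 hr, the times at which Atf4, Asns and Psat1 were higher. Most coding genes shared these steps: 87.9% went down from 1.5 to 6 hr and 84.2% went up from 6 to 24 hr. The part of leukocyte markers in these results was not tested. In bulk RNA, fewer cells of a type and less RNA per cell cannot be told apart. The summed epithelial markers stayed at or below 0.588 and the endothelial ones at or below 0.0588.

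The level of the whole table also moved. The median log2 ratio of the 6570 coding genes to the untreated library was 0.45, -0.74 and 0.11 in time order. Each member is therefore given as deposited and after this coding median was subtracted.

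ATF4 with a C/EBP partner binds composite sites known as CAREs, whose core was searched for as TGATGNAA on both strands in the RefSeq promoter sequences (GRCm38.p6, 250 bases before to 50 after the start). All 12 RefSeq promoters of the 10 genes were found once each, unchanged, in the mm9 genome, so mm9 positions are given. A match lay in the promoters of 3 members, Trib3, Chac1 and Asns, while 3.97% of the 32851 promoters in the collection and 2.12% of the 6119 promoters of the expressed coding genes held one. In a longer window of 1000 bases before to 200 after the start, 5 of 10 members had a match, Ddit3 and Sesn2 in addition, against 11.3% of 6442 coding genes. Members were searched around every RefSeq start but coding genes around a single GENCODE start each, so the shares are not fully alike. The 40 bases around each match are shown because they are the sequence feature that the members with a match share; they read 5′ to 3′ on the strand of the gene, with the match in capitals.
Asns, chr6:7643209-7643248, minus strand: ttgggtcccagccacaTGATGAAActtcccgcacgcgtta
Chac1, chr2:119176769-119176808, plus strand: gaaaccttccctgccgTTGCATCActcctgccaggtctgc
Trib3, chr2:152169759-152169798, minus strand: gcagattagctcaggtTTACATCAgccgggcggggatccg
Ddit3, chr10:126727532-126727571, plus strand: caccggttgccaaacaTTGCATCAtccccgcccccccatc
Sesn2, chr4:132066652-132066691, minus strand: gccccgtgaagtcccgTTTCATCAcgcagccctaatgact
The Asns match is on the strand of the gene and begins 23 bases before the start, and the other 4 are on the opposite strand. Those of Chac1, Ddit3 and Sesn2 begin 193, 301 and 304 bases before the start, and that of Trib3 begins 14 bases after it. No member promoter held the palindromic cAMP response element TGACGTCA, found in 1.79% of all promoters, or the NF-κB consensus, found in 4.51%. A match is a string of letters and not a shown binding site, and the absence of a match concerns only these windows.

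Atf4, Psat1 and Asns were the members at least 2-fold higher than untreated at 1.5 hr, and again at 24 hr. Atf5, Ddit3 and Trib3 were below untreated at every time and at least 2-fold lower at 6 and 24 hr. At 1.5 hr, 3 of 10 members were at least 2-fold higher and 0 were lower, where 29.9% of coding genes were higher and 7.82% lower, so the share of higher members was near the background. Once the coding median was subtracted, 1 member (Psat1) was higher and 3 (Atf5, Ddit3, Trib3) were lower, against 15.7% and 17.5% of coding genes. At 6 hr, 0 members were higher and 6 were lower, against 1.74% and 31.6% of coding genes. After subtraction, 1 member (Trib3) was still lower and 0 were higher, against 3.15% and 7.14%. The 24 hr library had 3 members higher and 3 lower, where 16.8% of coding genes were higher and 12.6% lower. With the median subtracted there were 2 higher (Psat1 and Asns) and 3 lower, against 14.1% and 15.2%. The median log2 ratio of the 10 members was 0.67, -1.15 and 0.30 in time order, or 0.22, -0.41 and 0.19 relative to the coding median. The members were spread over 2.89, 2.16 and 3.33 log2 units at the 3 times.

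**Figure D1:**
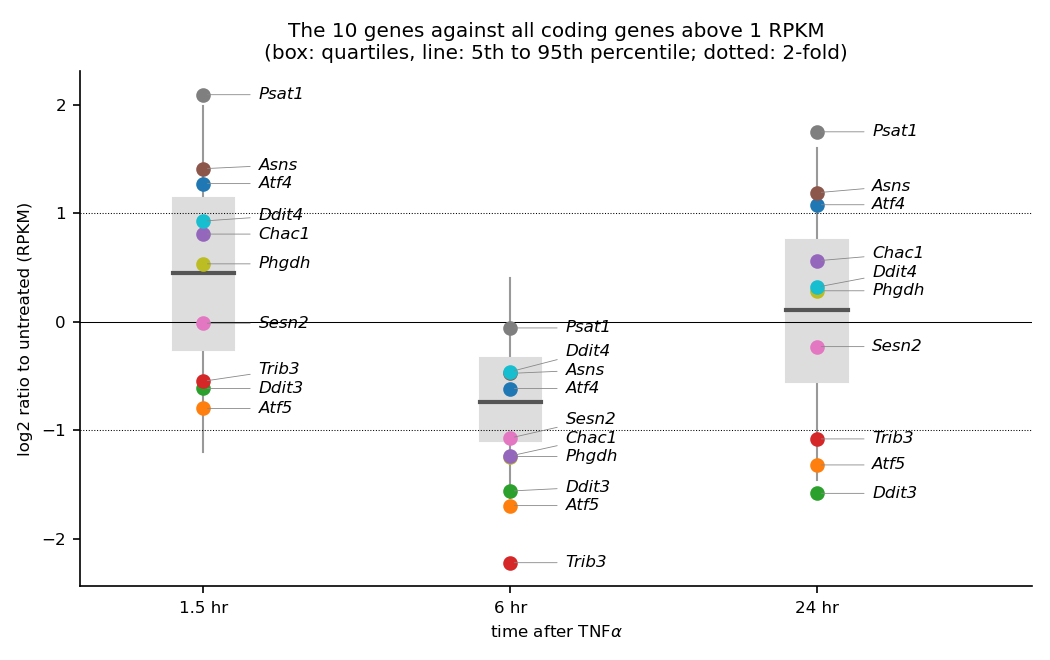
Log2 ratio of RPKM to the untreated library (vertical axis) for the 10 ISR genes (coloured points) at 1.5, 6 and 24 hr of TNFα, with the quartiles (box), median (bar) and 5th to 95th percentile (line) of 6570 coding genes. Psat1 lies at the top at each time (2.09, -0.06 and 1.75), and Atf5, Ddit3 and Trib3 are the lowest 3 members each time.

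The transcription factors differed in direction. Atf4 (chr15:80085614-80087970, plus strand), the central activator, had an RPKM of 17.6 untreated, 42.6 at 1.5 hr, 11.5 at 6 hr and 37.2 at 24 hr. Its level was thus high at 1.5 and 24 hr and lowest at 6 hr. The change was 2.42-fold at 1.5 hr and 2.11-fold at 24 hr, with log2 ratios of 1.27, -0.62 and 1.08 in time order. Against the coding median these were 0.82, 0.13 and 0.97, so that the sign at 6 hr turned, as it did under each of the 4 other scalings tried. At 1.5 hr the ratio was under 2-fold by the median of ratios (0.86 over all and 0.84 over coding transcripts) and the trimmed mean (0.91), and past it when scaled to the sum (1.02). Atf4 stood at the 79.2 percentile of coding genes at 1.5 hr and the 85.1 percentile at 24 hr.

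Atf5 (chr7:52067627-52072028, minus strand) encodes a relative of ATF4 that is also translated preferentially under stress, and it had the highest untreated level of the 10. Its RPKM was 84.8 untreated, 48.7 at 1.5 hr, 26.2 at 6 hr and 34.0 at 24 hr. Every treated library was below the untreated one, by 3.23-fold at 6 hr and 2.50-fold at 24 hr, with log2 ratios of -0.80, -1.69 and -1.32. The transcript with the highest mean is a noncoding entry of the gene (NR_033136). The coding entry (NM_030693) had 78.6, 41.6, 24.2 and 29.8, with ratios of -0.92, -1.70 and -1.40. Exons of Atf5 share 82 bases with Nup62 and with Il4i1 on the opposite strand, and whether the authors' counting used strand is not given in the sources used here.

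Ddit3 (chr10:126727830-126733344, plus strand) encodes CHOP, the factor linked to cell death in prolonged ER stress. It was at 37.0 RPKM untreated, 24.2 at 1.5 hr, 12.6 at 6 hr and 12.4 at 24 hr. Ddit3 alone of the members was lowest at 24 hr, but its levels at 6 and 24 hr overlapped between the 2 columns deposited per library (12.1 and 13.0 at 6 hr, 11.1 and 13.7 at 24 hr). It was 2.95-fold lower at 6 hr and 2.99-fold lower at 24 hr, and its log2 ratios were -0.61, -1.56 and -1.58. Its columns were also the least alike of any member: R1 gave -0.85 and R2 -0.40 at 1.5 hr, the widest gap (0.446) of the 30 ratios, for which the median gap was 0.0687. Relative to the coding median Ddit3 was at -1.07, -0.82 and -1.69, and at 24 hr it was at the 3.65 percentile of coding genes. Its exons share 68 bases with Mars on the opposite strand; Mars had log2 ratios of 0.34, -0.76 and 0.06.

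Trib3 (chr2:152163158-152169768, minus strand) encodes a pseudokinase that is induced by ATF4 and CHOP and restrains both. Its RPKM was 7.33 untreated, 5.02 at 1.5 hr, 1.57 at 6 hr and 3.47 at 24 hr. Its lowest library was that of 6 hr, 4.66-fold below untreated, and the 24 hr library 2.11-fold below. With log2 ratios of -0.55, -2.22 and -1.08 it had the lowest ratio of any member at 6 hr, at the 0.350 percentile of coding genes and -1.48 relative to their median. The direction of Atf5, Ddit3 and Trib3 was downward at all 3 times under each scaling.

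**Figure D2:**
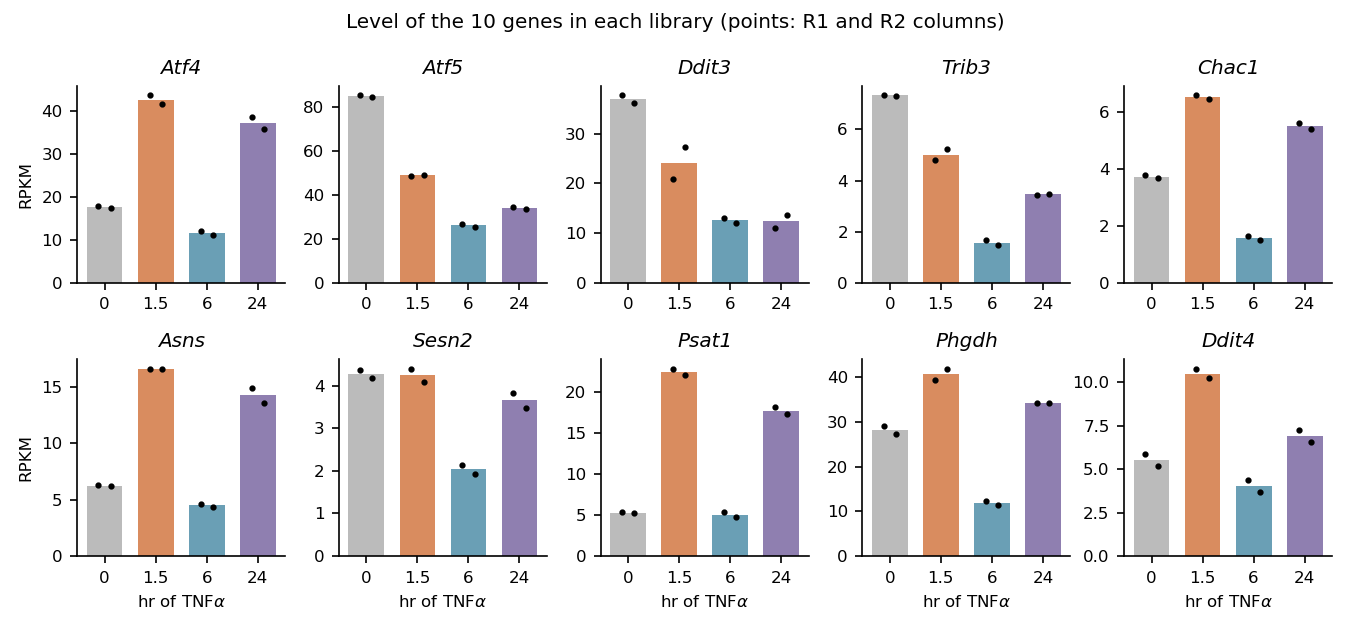
RPKM (vertical axes, from 0) of each of the 10 ISR genes in the untreated library (0) and after 1.5, 6 and 24 hr of TNFα; bars are library values and points the R1 and R2 columns, which are not replicates. Atf4, Asns and Psat1 are high at 1.5 and 24 hr, while Atf5, Ddit3 and Trib3 are highest untreated.

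Among the amino acid enzymes, the highest ratios were those of Psat1 (chr19:15979168-16021827, minus strand), the phosphoserine aminotransferase of serine synthesis. Psat1 was at 5.27 RPKM untreated, 22.4 at 1.5 hr, 5.06 at 6 hr and 17.7 at 24 hr. Levels at 1.5 and 24 hr were 4.26-fold and 3.36-fold the untreated level, whereas the columns of the 6 hr and untreated libraries overlapped. In log2 units the ratios were 2.09, -0.06 and 1.75, and 1.64, 0.68 and 1.64 above the coding median. Psat1 was at the 96.1 percentile of coding genes at 1.5 hr, the 85.7 percentile at 6 hr and the 96.6 percentile at 24 hr.

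Asns (chr6:7625169-7643254, minus strand), asparagine synthetase and a classic amino acid response gene, had 6.23 RPKM untreated, 16.6 at 1.5 hr, 4.48 at 6 hr and 14.2 at 24 hr. It followed the course of Atf4, with 2.66-fold and 2.28-fold higher levels at 1.5 and 24 hr and the lowest level at 6 hr. Its log2 ratios were 1.41, -0.48 and 1.19. Above the coding median they were 0.96, 0.27 and 1.08, the sign at 6 hr again turning, also under each of the other scalings. At 1.5 hr it was 0.999 and 0.98 by the median of ratios over all and over coding transcripts, under 2-fold.

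Phgdh (chr3:98117093-98143913, minus strand), the dehydrogenase that opens the serine pathway, was at 28.1 RPKM untreated, 40.6 at 1.5 hr, 11.9 at 6 hr and 34.2 at 24 hr. Only the 6 hr library was past 2-fold, 2.37-fold lower, and the log2 ratios were 0.53, -1.24 and 0.29. After subtraction of the coding median these were 0.08, -0.50 and 0.17. Phgdh must be read with care, since its 1893-base transcript has 21 matches elsewhere in mm9, the longest over 1849 bases and 10 of them with at least 95% identity, and its reads may be shared among these places. Psat1 had 1 further match of 281 bases, and the other members had none.

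The remaining members act in redox control and growth signalling. Chac1 (chr2:119176965-119180117, plus strand) encodes an enzyme that degrades glutathione. It had the lowest untreated level, 3.74 RPKM, with 6.55 at 1.5 hr, 1.59 at 6 hr and 5.52 at 24 hr. Its course resembled that of Phgdh, above untreated at 1.5 and 24 hr without reaching 2-fold and 2.36-fold lower at 6 hr, with log2 ratios of 0.81, -1.24 and 0.56 (0.35, -0.50 and 0.45 against the coding median).

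Sesn2 (chr4:132047947-132066416, minus strand), the leucine sensor Sestrin2 that inhibits mTORC1, was at 4.28 RPKM untreated, 4.24 at 1.5 hr, 2.04 at 6 hr and 3.65 at 24 hr. Columns of the untreated and 1.5 hr libraries overlapped, and the 6 hr library was 2.10-fold lower. The log2 ratios were -0.01, -1.07 and -0.23, or -0.47, -0.33 and -0.34 relative to the coding median.

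Ddit4 (chr10:59412423-59414518, minus strand) encodes REDD1, another inhibitor of mTORC1. Its RPKM was 5.51 untreated, 10.5 at 1.5 hr, 4.01 at 6 hr and 6.88 at 24 hr. No library was 2-fold from untreated, the nearest being that of 1.5 hr with 1.90-fold, and the log2 ratios were 0.93, -0.46 and 0.32. Against the coding median Ddit4 was above 0 at each time (0.48, 0.28 and 0.21), which turned its sign at 6 hr.

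The untreated levels, scaled to length but not adjusted for GC content or near copies, fell in the order Atf5, Ddit3, Phgdh, Atf4, Trib3, Asns, Ddit4, Psat1, Sesn2 and Chac1. Among neighbours in this order the R1 and R2 values overlapped only for Ddit4 and Psat1. From 1.5 to 6 hr all 10 members went down, as did 87.9% of coding genes. From 6 to 24 hr 9 members went up, as did 84.2% of coding genes, Ddit3 being the exception. All 10 were lower at 24 than at 1.5 hr, as were 87.0% of coding genes. These steps share libraries with each other.

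Likeness of course was measured as the Euclidean distance over the 3 log2 ratios among 6569 other coding genes. Nearest to Atf4 were Cryzl1 (0.0621), Nme4 (0.0698) and Ntan1 (0.0783). Asns was the nearest member, at rank 75 with a distance of 0.225, followed by Ddit4 (0.847) and Chac1 (0.932). Nearest to Ddit3 were Synpo (0.144), Hdac4 (0.145) and Etl4 (0.185), and Atf5 was the nearest member at rank 25 (0.347), then Trib3 at rank 440 (0.832). Atf4 and Ddit3 lay 3.39 apart.

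GC content moved with the ratios over the whole table. Coding genes were split into 3 equal classes by GC content. In the class with the lowest GC content (34.4 to 49.9%) the median log2 ratio at 1.5 hr was 1.11, in the middle class 0.44 and in the highest class (55.3 to 71.7%) -0.26. At 24 hr these medians were 0.71, 0.07 and -0.52, and at 6 hr -0.41, -0.84 and -0.91. Asns (47.7%) and Psat1 (48.4%) are in the lowest class and Atf4 (54.1%) in the middle one. The other 7 members are in the highest class, up to Atf5 at 61.7%, above 96.9% of coding genes.

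Ratios centred on the median of 20 bins of GC content kept some of the differences. Psat1 was at 1.15, 0.48 and 1.13 in time order and stayed past 2-fold at 1.5 and 24 hr. Atf4 was at 0.93, 0.23 and 1.11, past 2-fold only at 24 hr, and Asns at 0.52, 0.13 and 0.74, past 2-fold at no time. Chac1 was past 2-fold at both 1.5 and 24 hr (1.07 and 1.02), and Ddit4 at 1.5 hr (1.19). Atf5 was at -0.03, -0.81 and -0.30 after centring, so none of its values was past 2-fold. Ddit3 was at -0.71, -0.64 and -1.39 and Trib3 at -0.21, -1.27 and -0.46, which left Ddit3 at 24 hr and Trib3 at 6 hr as the lower members. Sesn2, with 0.32, -0.12 and 0.39, turned in sign at 1.5 and 24 hr. Counts of higher and lower members were then 3 and 0 at 1.5 hr, 0 and 1 at 6 hr, and 3 and 1 at 24 hr. Among the 6445 coding genes with a GC content, 10.7% were higher and 10.6% lower at 1.5 hr after the same centring, 4.93% and 2.56% at 6 hr, and 10.3% and 8.94% at 24 hr.

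**Figure D3:**
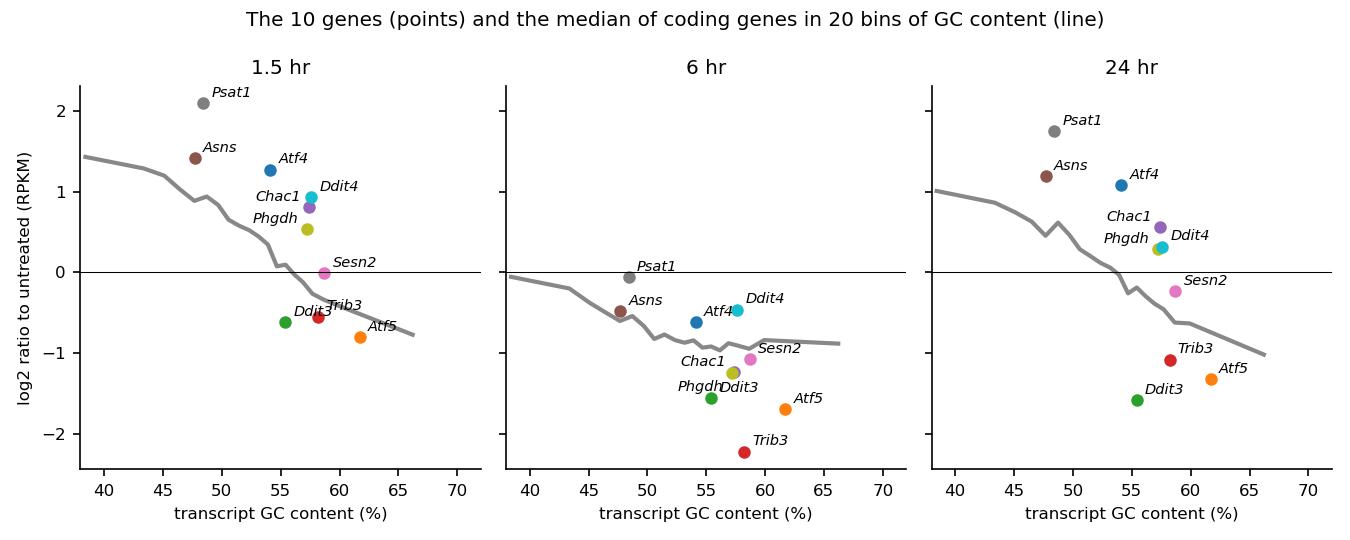
Log2 ratio of RPKM to untreated (vertical axis) against transcript GC content in percent (horizontal axis) at 1.5, 6 and 24 hr, with the median of coding genes in 20 bins as a line and the 10 ISR genes as points. At 1.5 and 24 hr the line falls with GC content. At both times Psat1, Atf4, Chac1, Ddit4, Asns, Phgdh and Sesn2 lie above it, and Ddit3, Trib3 and Atf5 below it.

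The wider pathway was described with 100 further genes in 8 lists, of which 80 had an average RPKM above 1. Of these 80, 35 were at least 2-fold higher and 0 lower at 1.5 hr, 0 higher and 10 lower at 6 hr, and 16 higher and 1 lower at 24 hr. After subtraction of the coding median the counts were 20 and 4, 8 and 1, and 14 and 4. Of coding genes, 15.7% and 17.5%, 7.14% and 3.15%, and 14.1% and 15.2% were then higher and lower. After centring on GC content the counts were 12 and 3, 3 and 0, and 9 and 3. The shares of coding genes were then 10.7% and 10.6%, 4.93% and 2.56%, and 10.3% and 8.94%. As a share of the 80, 43.8% were higher at 1.5 hr, where 29.9% of all coding genes were. At 6 hr 12.5% were lower, against 31.6%, and at 24 hr 20.0% were higher, near the 16.8% of the background. The filter averaged the 4 libraries, so a gene below 1 RPKM untreated passed it only through treated libraries, which favours a rise. Of the genes higher at 1.5 hr, Eif2s1, Eif2b1, Ppp1r15b, Psph, Got1, Dars, Ero1l and Edem1 were below 1 untreated. The coding genes passed the same filter. Without it 45 of the 100 were higher at 1.5 hr, against 28.8% of coding genes, and 23 at 24 hr, against 17.5%. In each list the genes with the largest positive and the largest negative value relative to the coding median among those above 1 RPKM are named, each with its values after GC centring.

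Upstream in the pathway, 4 of 11 sensor kinase and eIF2 genes were at least 2-fold higher at 1.5 hr and 3 at 24 hr, and 2 were lower at 6 hr. The share at 1.5 hr (36.4%) was near the background of 29.9%, and that at 6 hr (18.2%) was below the 31.6% of coding genes. At 24 hr 27.3% were higher, against 16.8%, in a list of 11 genes only. After subtraction of the coding median 3 were higher at 1.5 hr and 3 at 24 hr, against 15.7% and 14.1%. At 1.5 hr 1 was then lower, against 17.5%. Eif2s1, the eIF2 subunit that is phosphorylated, had 0.996 RPKM untreated, 5.38 at 1.5 hr, 1.52 at 6 hr and 3.75 at 24 hr. Its log2 ratios were 2.43, 0.61 and 1.91, and after GC centring 1.00, 0.67 and 0.91, so that the 24 hr value was no longer past 2-fold. Eif2b4, a subunit of the exchange factor eIF2B, had 4.31, 2.91, 2.51 and 2.57, with a ratio of -0.57 at 1.5 hr, or -1.02 relative to the coding median and -0.44 after GC centring.

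A phosphatase reverses the ISR by removing the phosphate from eIF2. Of 4 of its subunit genes, 3 were at least 2-fold higher at 1.5 hr and 2 at 24 hr, against 29.9% and 16.8% of coding genes. After subtraction of the coding median 2 and 1 were higher, against 15.7% and 14.1% of coding genes, in a list of 4 genes only. Ppp1r15a, the stress-induced subunit GADD34, was at 3.83 RPKM untreated, 10.7 at 1.5 hr, 2.48 at 6 hr and 10.4 at 24 hr (log2 ratios of 1.48, -0.63 and 1.44, and 1.38, 0.29 and 1.63 after GC centring). Ppp1ca, a catalytic subunit, had the lowest value of this list, -0.14 relative to the coding median at 6 hr, with RPKM of 33.5, 52.9, 18.2 and 38.1 and GC-centred ratios of 0.59, 0.05 and 0.45.

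Partner transcription factors above 1 RPKM numbered 5, of which 4 were at least 2-fold higher at 1.5 hr (Cebpb, Nfe2l2, Jun and Xbp1) and 2 at 24 hr. The shares of coding genes were 29.9% and 16.8%. After subtraction of the coding median 3 and 2 were higher, against 15.7% and 14.1% of coding genes, in a list of 5 genes only. Cebpb, a C/EBP factor that is also an early inflammatory gene, was at 1.72 RPKM untreated, 9.30 at 1.5 hr, 2.66 at 6 hr and 5.83 at 24 hr. Its log2 ratios of 2.44, 0.63 and 1.76 became 3.21, 1.52 and 2.78 after GC centring. Nupr1, a stress-induced chromatin protein, had 164, 116, 132 and 94.2, below untreated at each time without reaching 2-fold. Its GC-centred ratios were -0.59, 0.60 and -0.61, with the sign at 6 hr turned.

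Among enzymes of serine and other amino acids, 5 of 10 were at least 2-fold higher at 1.5 hr and 2 at 24 hr, and 1 was lower at 6 hr, against 29.9%, 16.8% and 31.6% of coding genes. After subtraction of the coding median 2 were higher at 1.5 hr and 2 at 24 hr, against 15.7% and 14.1% of coding genes. Psph, the phosphatase that completes serine synthesis after Phgdh and Psat1, was at 0.690 RPKM untreated, 4.25 at 1.5 hr, 1.20 at 6 hr and 4.09 at 24 hr. Its log2 ratios were 2.62, 0.79 and 2.57 (2.10, 1.63 and 2.45 after GC centring). Along the serine pathway the ratio at 1.5 hr was thus 0.53 for Phgdh, 2.09 for Psat1 and 2.62 for Psph, or 0.65, 1.15 and 2.10 after GC centring. The near copies of Phgdh and the untreated level of Psph, below 1 RPKM, limit this comparison. Pck2, the mitochondrial PEP carboxykinase, had 14.8, 13.4, 7.08 and 8.90, and was 2-fold lower only at 6 hr (-1.06), which was -0.22 after GC centring.

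Amino acid transporters split. Of 9, 2 were at least 2-fold higher at 1.5 hr (Slc7a11 and Slc38a1), 4 were lower at 6 hr, and 1 was higher and 1 lower at 24 hr. Here 22.2% were higher at 1.5 hr, below the background of 29.9%, and 44.4% lower at 6 hr, above that of 31.6%. At 24 hr 11.1% were higher and 11.1% lower, against 16.8% and 12.6% of coding genes. Slc7a11, the cystine transporter xCT, was at 1.22 RPKM untreated, 8.41 at 1.5 hr, 1.88 at 6 hr and 6.97 at 24 hr. Its log2 ratios were 2.78, 0.62 and 2.51 (1.36, 0.67 and 1.51 after GC centring). Slc7a5, the large neutral amino acid transporter LAT1, was at 23.2, 12.8, 6.42 and 7.47, with ratios of -0.86, -1.85 and -1.63 (-0.83, -0.88 and -1.34 after GC centring).

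Of 18 cytosolic aminoacyl-tRNA synthetase genes, 6 were at least 2-fold higher at 1.5 hr and 3 at 24 hr, and 2 were lower at 6 hr. As shares, 33.3%, 16.7% and 11.1% stood against 29.9%, 16.8% and 31.6% of coding genes. The list median was 0.17, 0.09 and 0.15 above the coding median in time order. Tars (threonine) was at 2.47, 9.23, 3.26 and 6.13 RPKM with ratios of 1.90, 0.40 and 1.31, and Vars (valine) at 15.9, 8.18, 11.6 and 8.09 with ratios of -0.96, -0.45 and -0.97. After GC centring Tars was at 0.96, 0.94 and 0.69, not past 2-fold, and Vars at -0.19, 0.43 and 0.04, its sign turned at 6 and 24 hr.

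Other targets of ATF4 or CHOP had 5 of 9 genes at least 2-fold higher at 1.5 hr, 1 lower at 6 hr and 2 higher at 24 hr (55.6%, 11.1% and 22.2%, against 29.9%, 31.6% and 16.8% of coding genes). After subtraction of the coding median 3 were higher at 1.5 hr and 1 at 24 hr, against 15.7% and 14.1%. At 24 hr 1 was then lower, against 15.2%. Sqstm1, which encodes the autophagy receptor p62, was at 19.5, 91.1, 18.8 and 41.6 RPKM, with ratios of 2.22, -0.06 and 1.09 (1.88, 0.78 and 1.12 after GC centring). Bbc3, the apoptosis gene PUMA, was at 3.92, 2.79, 2.75 and 2.07, with ratios of -0.49, -0.51 and -0.92, which GC centring turned to 0.28, 0.37 and 0.10. ER chaperone genes had 6 of 14 at least 2-fold higher at 1.5 hr and 1 at 24 hr. These shares of 42.9% and 7.14% stood against 29.9% and 16.8% of coding genes. At 6 hr 0 were past 2-fold, where 31.6% of coding genes were lower and 1.74% higher. After subtraction of the coding median 4 chaperone genes were higher at 1.5 hr and 1 at 24 hr, against 15.7% and 14.1%. Hspa5, the ER chaperone BiP, was at 7.28, 27.2, 7.45 and 14.4 RPKM, with ratios of 1.90, 0.03 and 0.98 (1.02, 0.64 and 0.53 after GC centring). Hyou1, another ER chaperone, was at 4.39, 4.83, 2.84 and 3.19, and -0.57 relative to the coding median at 24 hr, with GC-centred ratios of -0.20, 0.21 and -0.43.

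**Figure D4:**
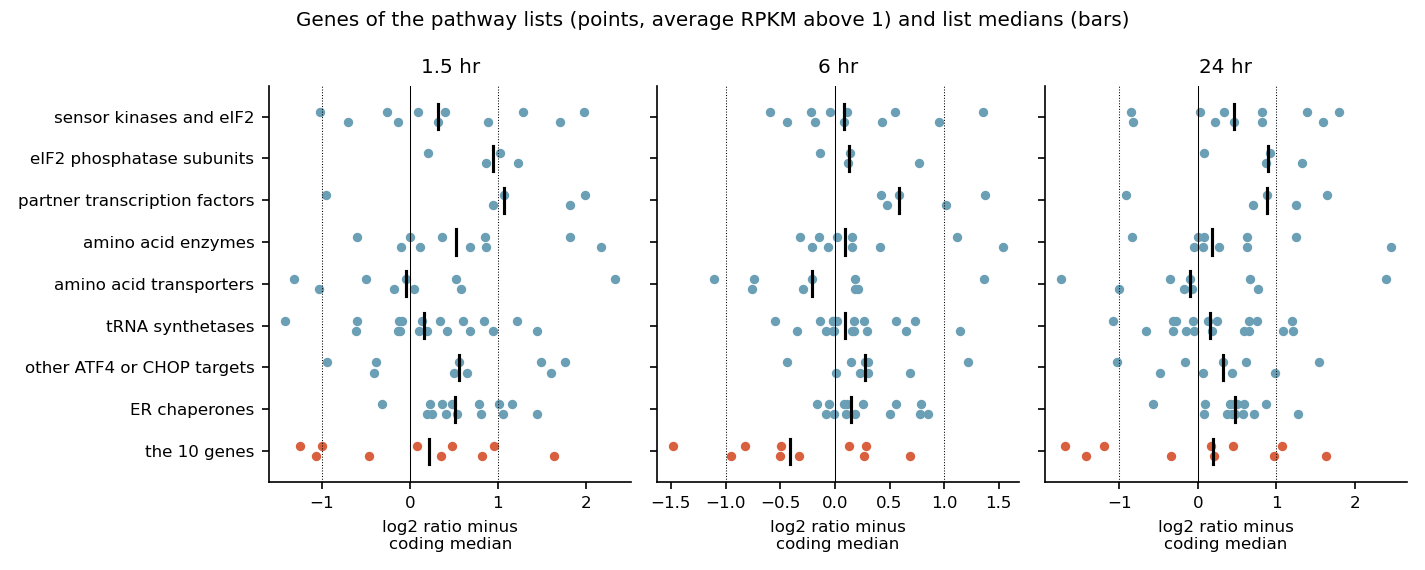
Log2 ratio to untreated minus the coding median (horizontal axis) at 1.5, 6 and 24 hr for genes of 8 pathway lists (blue points) and the 10 ISR genes (red points), with list medians as bars and 2-fold as dotted lines. The 10 genes reach from -1.25 to 1.64 at 1.5 hr and from -1.69 to 1.64 at 24 hr.

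Before TNFα, 9 of 10 members carried an H3K4me3 peak over an annotated start, Chac1 being the exception also within 5 kb. Of 6442 coding genes above 1 RPKM, 92.2% had a peak within 1 kb. Peaks at members were called from 1 ChIP library against input, and their tags are counts of reads. The widest was that of Ddit3, with 10900 bases and 3730 tags, more tags than at 98.6% of the 5942 coding genes with a peak. It reached from 6132 bases before the start to 4767 after it. Atf5 had 8544 bases and 2592 tags, and Sesn2 had 6676 bases and 2539 tags. Whether a peak also covered the start of another gene was not checked, so its width and tags may not belong to the member alone.

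The peak of Ddit4 was 5243 bases with 2666 tags, the densest of the members at 508.5 tags per kb (median of coding genes 350.3). Atf4 had 5235 bases with 2127 tags and a fold enrichment of 69.01, and its summit lay 1291 bases after the start. The serine genes Psat1 and Phgdh had 1695 and 1269 tags. Trib3 had 1136 tags, and Asns had the fewest, 976, below the median of 1322. At a fold enrichment of at least 40, 5 members kept a peak (Atf4, Atf5, Ddit3, Trib3 and Phgdh), against 64.0% of coding genes. H3K4me3 was not measured after TNFα.

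**Figure D5:**
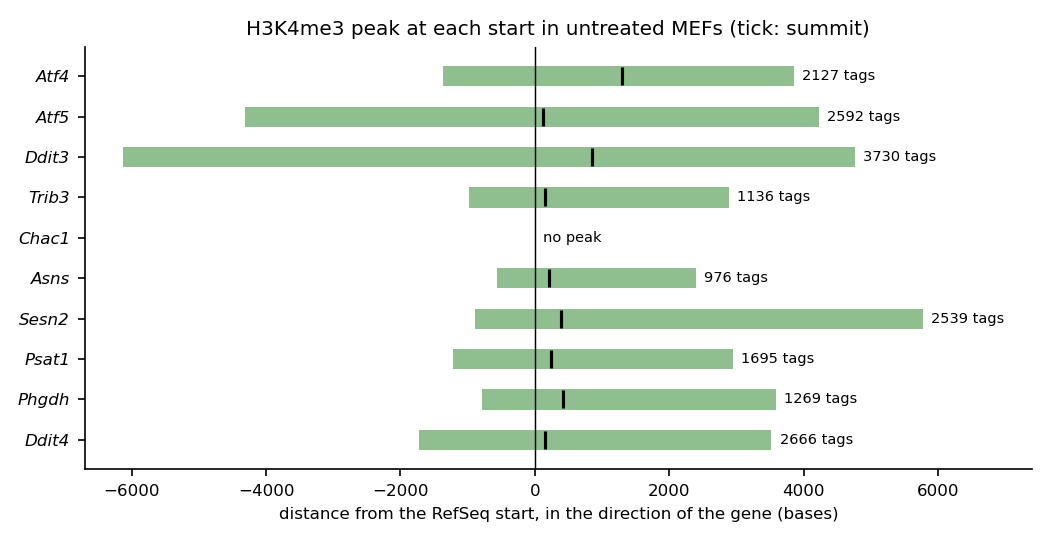
Extent of the H3K4me3 peak at the start of each ISR gene in untreated MEFs (horizontal axis: distance from the RefSeq start in bases, positive into the gene), with the summit as a tick and the number of tags beside it. The Ddit3 peak is the widest (10900 bases), the Asns peak the narrowest (2964 bases), and Chac1 has none.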

How the data were processed

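The authors used TopHat against mm9 for the RNA-seq reads and deposited RPKM values per RefSeq transcript, in 2 columns (R1 and R2) per library. The sources used here do not say which reads each column holds, so they were averaged and are no replicates. Columns were assigned to times by the study's list of libraries. Deposited values were divided by 85.7, the median of their ratio to the RPKM of a supplementary table over 6312 values (83.9 to 90.0 in single libraries). This leaves ratios unchanged. The authors' peak list (Bowtie, MACS) holds a deposited count of tags, a score from the p-value, a fold enrichment ratio and an FDR in percent per peak. The score was not analysed.

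The study states the mapped reads of each library, but the table holds no reads per transcript, and low values did not resolve into whole reads, so the depth behind a value is not known. Their most frequent ratio to the untreated R1 column lay between 0.839 and 1.17. A gene was called at 2-fold or more with an average RPKM above 1 and no pseudocount. Members and lists were chosen with earlier results of these data known. In each pathway list the genes with the largest rise and fall against the coding median were named among those above 1 RPKM, besides 4 TNFα targets and the 3 genes nearest to Atf4 and to Ddit3. GC content came from GENCODE transcripts (98.1% of coding genes matched). Alternatives were other scalings (sum, median of ratios, trimmed mean without 30% of ratios and 5% of levels on each side), pseudocounts of 0.1 and 1, folds of 1.5 and 3, single columns, summed transcripts, no filter and GC centring. Near copies were searched with blastn 2.17.0. Scripts ran in Python 3.11.15 with numpy 2.4.6 and pandas 2.3.3, and were tested on simulated data.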

Additional observations from a re-analysis of the deposited data

Results flagged for a closer look

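For 5 members the log2 ratio to untreated was above 0 at 1.5 and 24 hr and below 0 at 6 hr in both columns, so these times moved in opposite directions; with 1 library per time, the difference between times was not tested. At 1.5 and 24 hr the ratios were 1.27 and 1.08 for Atf4, 1.41 and 1.19 for Asns, 0.81 and 0.56 for Chac1, 0.53 and 0.29 for Phgdh, and 0.93 and 0.32 for Ddit4. At 6 hr they were -0.62, -0.48, -1.24, -1.24 and -0.46 in the same order. Relative to the coding median, whose own value was -0.74 at 6 hr, the directions stayed opposite for Chac1 and Phgdh, while Atf4, Asns and Ddit4 were above 0 at each time.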

How the results depend on the processing

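Scaling changed the counts at 1.5 and 6 hr. At 1.5 hr, members at least 2-fold higher numbered 1 (main 3) under the median of ratios over all or coding transcripts, and members lower numbered 1 to 2 (main 0) under the 4 scalings. At 6 hr 1 member was lower (main 6) under each scaling and under GC centring. GC centring, chosen for counts after seeing the data, left 1 lower at 24 hr (main 3). Thresholds of 1.5-fold gave 5 higher and 2 lower at 1.5 hr, and 3-fold gave 1 higher at 1.5 hr, 2 lower at 6 hr, and 1 higher and 0 lower at 24 hr. The shares of coding genes at these 2 thresholds were not computed, so these counts cannot be set against the background.

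The members' median moved as follows. Scaled to the sum it was 0.42, -0.33 and 0.35 in time order; by the median of all ratios 0.26, -0.35 and 0.25, and of coding ratios 0.24, -0.35 and 0.24; by the trimmed mean 0.31 and -0.42 at 1.5 and 6 hr. A pseudocount of 1 gave 0.59 and -0.84, and 0.1 gave -1.11 at 6 hr. GC centring gave 0.59, -0.23 and 0.70. No median changed sign.

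Pathway genes at 1.5 hr numbered 20, 20 and 22 higher (main 35) by the medians of ratios and the trimmed mean, and 2 to 3 lower (main 0) under the scalings, or 1 in R1 alone. At 6 hr 8 to 9 were higher (main 0) and 1 lower (main 10) under the scalings, and 4 lower with a pseudocount of 1. At 24 hr 10 were higher (main 16) with a pseudocount of 1, and 2 lower (main 1) by the medians of ratios or in R1 alone. The background moved too: at 1.5 hr 16.6, 15.9 and 17.8% of coding genes were higher by the medians of ratios (all, coding) and the trimmed mean. The share lower at 1.5 hr was 12.9% by the sum, then 16.8, 17.3 and 15.6%, and 17.04% without a filter. At 6 hr the share higher was 8.56, 8.10, 8.06 and 7.02% under the scalings and 4.92% without a filter, and the share lower 2.13, 2.40, 2.41 and 3.17%. At 24 hr 21.6% were lower without a filter.

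A fold enrichment of 40 left 5 members with an H3K4me3 peak (main 9), and the longer window gave 5 with a CARE match (main 3). No call of a member reversed. No paired analysis was possible because each time has 1 library, with no replicate to leave out.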
